A study of Sus scrofa with 6 samples.

Results

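The genes of protein processing in the endoplasmic reticulum (ER) were described in the hypothalamus, pituitary and ovary of sows in estrus and in anestrus. Members were the genes that the deposited tables annotate with the KEGG pathway entry for protein processing in the ER, without those that also have the TNF signalling entry. This rule took 117 of 19465 genes and used no expression value. It left out 8 genes with both entries, among them ATF4, ATF6B and the JNK kinases MAPK8, MAPK9 and MAPK10. A member was described in a tissue where its mean normalised count over both libraries was at least 10, which 112 members reached in the hypothalamus, 110 in the pituitary and 109 in the ovary. Members under that level in every tissue included BCL2, LMAN1L, UBE2D2 and UBQLNL. DNAJC5B and YOD1 were also under it in the pituitary, and DNAJC5B, SEL1L2 and SVIP in the ovary. The members just inside the level were YOD1 in the hypothalamus (mean 11.5), SEL1L2 in the pituitary (10.1) and YOD1 in the ovary (10.4), and those just outside were BCL2 (1.97), YOD1 (5.03) and SVIP (7.69).

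The samples were whole tissues of primiparous (once-farrowed) Landrace x Large White sows. The estrous group was in normal estrus, and the anestrous group had inactive ovaries. The study profiled RNA of each tissue to find genes that differ between these states. The labels give 3 sows for each state but there was 1 library for each tissue and state, and the labels do not say whether the sows were pooled, so no result below has a replicate check. Sow age was not given in the labels.

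The rough ER receives secreted and membrane proteins through the Sec61 translocon, and the oligosaccharyltransferase attaches a glycan to them as they enter. Chaperones such as HSPA5 (BiP), disulfide isomerases and the lectins calnexin and calreticulin fold them, COPII coats carry folded proteins onward, and proteins that fail to fold are trimmed by mannosidases, pulled out by the HRD1 complex and degraded. Sensors in the ER membrane answer a load of unfolded protein by raising these same genes, a programme known as the unfolded protein response, and cells that secrete hormones keep much of the machinery at high levels.

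Library totals of gene-assigned reads lay between 15314325 and 17384789. The defining markers of each tissue were present, with 248811 and 259550 RPM (reads per 1000000 gene-assigned reads of the library) on 7 anterior pituitary genes in the estrous and anestrous pituitary libraries. Genes that mark cell types also differed between the libraries of a tissue. In the ovary, 8 of 8 granulosa cell markers were lower in the anestrous library, 7 of them at least 2-fold, and their summed level was 12936 RPM in the estrous and 2522 in the anestrous library, with none at 0. Of 8 macrophage markers 7 were over the level of 10 and 5 of these were at least 2-fold higher, with a sum of 1248 and 2963. Among macrophage markers, CSF1R had 176 and 2439 reads, whereas C1QA (log2 fold -0.19) and CD163 (11 reads and 1 read) were lower. Plasma and B cell markers, plasma cells being rich in ER, summed to 54 and 52.8 RPM, with 4 of 6 over the level higher (median log2 fold 0.33), among them CD79A (ratio 4.54) and PRDM1 (1.6), while JCHAIN was lower (0.784). None of either list was at 0. Of 5 fibroblast markers 3 were higher, with a median log2 fold of 0.56 and ratios of 11.3 for POSTN, 2.63 for LUM and 1.48 for COL3A1. COL1A2 (ratio 0.581) and DCN (0.653) were lower, and the sum of all 5 was 20543 and 17163. In the hypothalamus, 9 of 10 thalamus markers were higher in the anestrous library, 6 of them at least 2-fold. Their sum was 197 and 342 RPM, with none at 0. The 7 hypothalamus markers summed to 1899 and 930 but were split, with 3 higher and 4 lower. HCRT (ratio 2.52) and PMCH (2.02) were at least 2-fold higher, and AVP (0.0327), OXT (0.147) and POMC (0.163) at least 2-fold lower. All 4 neuron markers were higher there (3029 and 4070 RPM), and 4 of 5 fibroblast markers were lower (228 and 149). In the pituitary, 5 fibroblast markers were all lower (1115 and 755 RPM). The hormone genes there went both ways, with POMC at 47518 and 18906 RPM, TSHB at 281 and 134 and FSHB at 496 and 1853. In whole tissue, fewer cells of a type and less RNA per cell cannot be told apart, and the part of these marker differences in the results below was not tested.

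In the ovary, most ER protein processing genes had higher normalised counts in the anestrous library under the deposited scaling. The median log2 fold (anestrous over estrous normalised count, each plus 1) was 0.23 over 109 members, with quartiles of -0.05 and 0.49, against 0.01 over all genes at the same level, with quartiles of -0.45 and 0.51. The log2 fold was above 0 for 76 members, or 69.7%, against 50.4% of all genes, and for 56, or 51.4%, against 38.9%, with library totals set equal. At least 2-fold higher were 9 members, or 8.26%, against 13.6% of all genes, and at least 2-fold lower was 1 member, or 0.917%, against 10.7% of all genes. This stood beside granulosa marker sums of 12936 and 2522 RPM and macrophage marker sums of 1248 and 2963, and the part of these in it was not tested. The members thus held a smaller share of 2-fold differences than the table as a whole, in both directions. At a mean of at least 200 this held too, with 5.94% against 11% higher and 0.99% against 6.25% lower. The counting interval of the ratio lay above 1 for 63 members (57.8%, against 36% of all genes) and below 1 for 17 (15.6%, against 34.3%). Such intervals narrow as reads rise, so these shares also depend on depth. A mean of at least 200 was reached by 101 of 109 members and by 8016 of 13193 genes. The intervals were taken under the deposited scaling only.

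In the hypothalamus and pituitary the members lay close to all genes. The hypothalamus had 0 members at least 2-fold higher (1.99% of all genes) and 0 at least 2-fold lower (2.61% of all genes), a median log2 fold of 0.05 against 0.00, and a range from -0.78 to 0.59. The counting interval of the ratio lay above 1 for 35 members (31.2%, against 23.2% of all genes) and below 1 for 19 (17%, against 20.8%). The pituitary had 0 members 2-fold higher (2.27% of all genes) and 2 members 2-fold lower, or 1.82% (4.23% of all genes), with a median of 0.01 against 0.00 and a range from -1.88 to 0.88. Its counting intervals lay above 1 for 40 members (36.4%, against 23.6% of all genes) and below 1 for 33 (30%, against 23.6%). The interval counts of both tissues have the limits of depth and scaling given for the ovary. The 2-fold shares depend on depth as well. At a mean of at least 200, 0 of 100 hypothalamus members were 2-fold higher or lower, against 0.919% and 0.355% of all genes. In the pituitary 0 of 102 were higher (0.634% of all genes) and 2, or 1.96%, were lower (1.11% of all genes). At that level the pituitary members' share of lower genes exceeded that of all genes. The log2 fold was above 0 for 70 of 112 members in the hypothalamus, 62.5% against 49.8% of all genes, and for 56 of 110 in the pituitary, 50.9% against 49.7%. With equal library totals, a scaling described below, these counts were 42 of 112 (37.5%, against 37.2% of all genes) and 37 of 109 (33.9%, against 36.1%). By this count the hypothalamus members no longer exceeded all genes. The scaling moves members and all genes alike, and the members' median less that of all genes stayed at 0.05 there.

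**Figure D1:**
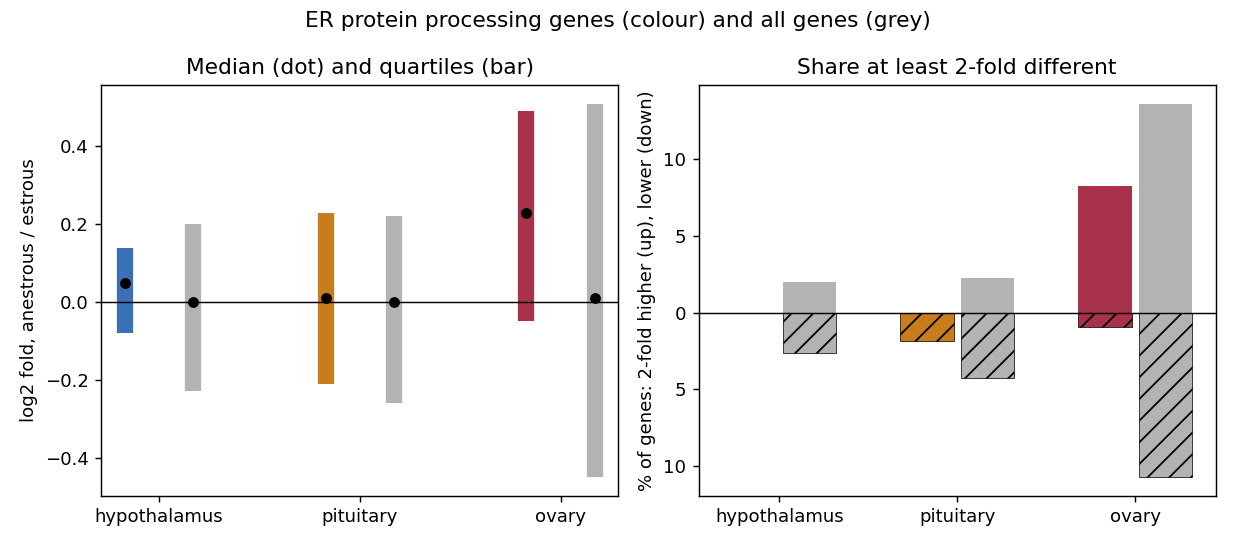
Left, median log2 fold (anestrous over estrous) with the quartiles as a bar, for the members (colour) and for all genes (grey) in each tissue; right, percent of each set at least 2-fold higher (upward bars) or lower (hatched, downward). In the ovary the members' median was 0.23 against 0.01 for all genes, while 8.26% of members and 13.6% of all genes were at least 2-fold higher; with library totals set equal the ovary medians are 0.03 and -0.20.

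How the libraries are scaled sets where 0 lies. Dividing by the library total in place of the deposited size factor moved the median log2 fold of all genes by -0.09 in the hypothalamus, -0.12 in the pituitary and -0.20 in the ovary, so folds are best read relative to that median. The members' median less that of all genes was 0.23 in the ovary, 0.05 in the hypothalamus and 0.00 to 0.01 in the pituitary under either scaling. With equal totals the members' own median was 0.03 in the ovary and, with the sign turned in the hypothalamus and pituitary, -0.04 and -0.11. As a share of all gene-assigned reads, which takes no size factor, the members held 2.228% of the estrous ovary library (95% Wilson interval 2.22 to 2.235) and 2.417% of the anestrous one (2.41 to 2.425). In the pituitary the shares were 2.251% (2.244 to 2.259) and 2.354% (2.347 to 2.361), and in the hypothalamus 1.746% (1.74 to 1.753) and 1.72% (1.714 to 1.727). These intervals, like all intervals on ratios below, cover counting error only, since each comparison has 1 library on either side.

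The authors' deposited table gave an adjusted p of at most 0.05 to 2 members in the pituitary, FBXO2 and HSPH1, against 0.761% of all genes there. It gave that to 0 members in the hypothalamus (0.868% of all genes) and to 0 in the ovary (0.819% of all genes). The lowest adjusted p of a member in the authors' deposited table for the ovary was 0.587, for MAN1A1. None of the members' ovary differences below therefore passed the authors' threshold.

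The 7 steps of the pathway differed in where their genes lay, and the plot of log2 folds by step shows each member. In the ovary the step medians were highest for glycan trimming and lectins (0.56) and for ER chaperones and oxidoreductases (0.52), followed by COPII export (0.39) and the translocon with the oligosaccharyltransferase (0.23). ER-associated degradation (0.09, but -0.11 with equal library totals) and the stress sensors (0.00) lay near the median of all genes, and the cytosolic heat shock proteins lay below it (-0.12).

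**Figure D2:**
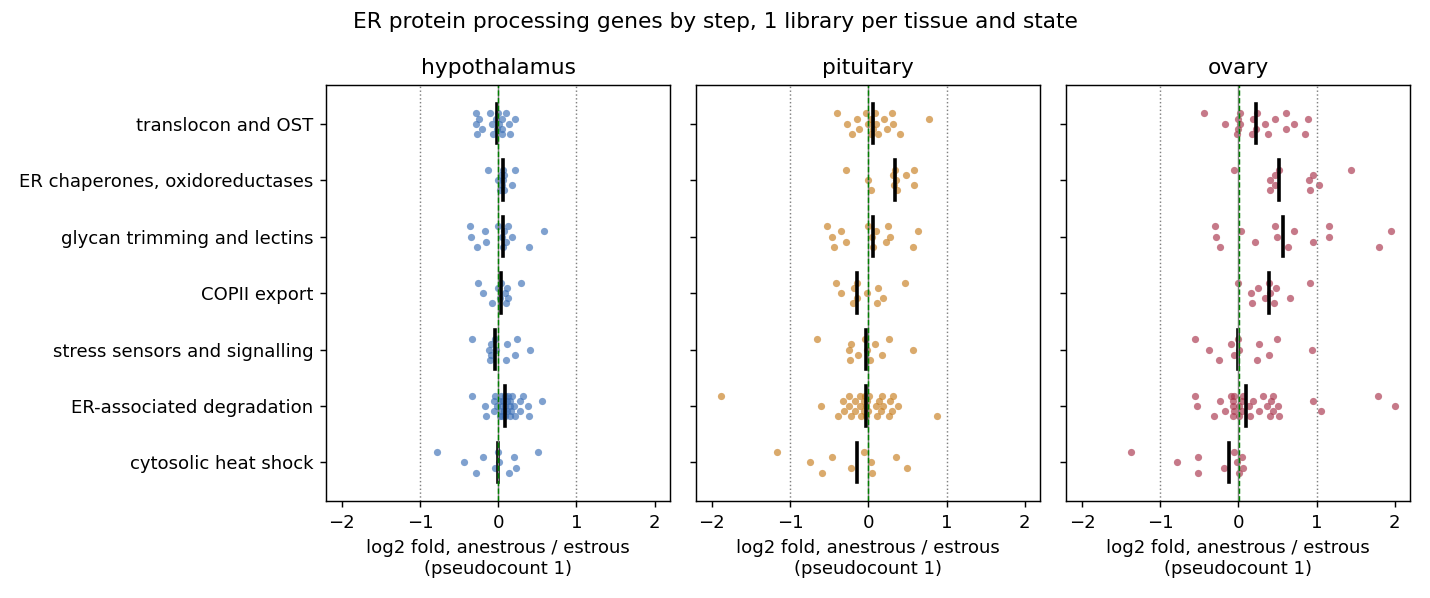
Log2 fold (anestrous over estrous normalised count) of every member over a mean of 10, by step of the pathway and tissue; black bars are step medians, the green dashed line is the median of all genes and dotted lines mark 2-fold. Most points of the chaperone and glycan steps (10 of 11 and 11 of 14) sit above 0 in the ovary. Their medians are 0.52 and 0.56, or 0.31 and 0.36 with equal library totals. FBXO2 and HSPH1 stand alone below the 2-fold line in the pituitary. With equal totals the medians of chaperones, COPII and glycan trimming in the hypothalamus turn below 0. So do those of the translocon and glycan trimming in the pituitary and of ER-associated degradation in the ovary.

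Translocon and oligosaccharyltransferase genes were higher in the anestrous ovary in 15 of 19 cases, none of them 2-fold, and in 10 of 19 with equal library totals. Of all genes there, 50.4% were higher, or 38.9% with equal totals. SSR1, a subunit of the translocon-associated protein complex, had 1438 reads in the estrous and 2464 in the anestrous ovary library, a ratio of normalised counts of 1.86 (95% interval 1.74 to 1.98). TRAM1, which helps nascent chains pass the translocon, had 989 and 1644 reads, a ratio of 1.8 (1.66 to 1.95). SEC61A1, the channel subunit itself, had 2656 and 4000 reads, a ratio of 1.63 (1.55 to 1.71). Its paralog SEC61A2 lay the other way, with 1349 and 918 reads, 1.36-fold lower (1.25 to 1.48). Both encode the pore-forming alpha subunit. Oligosaccharyltransferase subunits differed less, with log2 folds of 0.47 for the catalytic subunit STT3A, 0.23 for RPN1 and -0.17 for DAD1. RRBP1, the ribosome-binding protein of the rough ER, had 6090 and 8552 reads, a ratio of 1.52 (1.47 to 1.57).

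In the pituitary the same step had a median of 0.06, or -0.05 with equal library totals. SSR4, another translocon-associated subunit, had 6994 and 11294 reads, a ratio of 1.71 (1.66 to 1.76), and its log2 fold of 0.77 was the highest of the step. SSR2 had 13087 and 16445 reads, a ratio of 1.33 (1.3 to 1.36), whereas SSR3 had 3224 and 2790 reads (log2 fold -0.12). The subunits of this 1 complex therefore did not share a direction. In the hypothalamus SSR4 was lower instead, with 1111 and 883 reads (log2 fold -0.29), beside DDOST of the oligosaccharyltransferase with 1541 and 1230 reads (-0.28). The step's median there was -0.02.

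ER chaperones and oxidoreductases were higher in the anestrous library for 10 of 11 genes in the ovary and 9 of 11 in the pituitary, and for 10 and 8 of 11 with equal library totals. Of all genes, 50.4% and 49.7% were higher in these tissues, or 38.9% and 36.1% with equal totals. The summed level of the step was 4867 and 6623 RPM in the estrous and anestrous ovary libraries and 5661 and 6873 in the pituitary. In the hypothalamus 10 of 11 genes were higher as well, but 2 of 11 with equal totals. Of all genes there, 49.8% were higher, or 37.2% with equal totals. The hypothalamus sums were 2468 and 2422, and the median of 0.06 turned to -0.03 with equal totals. HSPA5, or BiP, the Hsp70 chaperone of the ER lumen, had 15048 and 26342 reads in the ovary, a ratio of 1.9 (1.86 to 1.94). In the pituitary it had 26838 and 32390 reads, a ratio of 1.28 (1.26 to 1.3). In the hypothalamus it had 9952 and 9910 reads, with a ratio of 1.03 whose interval held 1 (0.999 to 1.06).

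Partners of HSPA5 differed in the same direction in the ovary. DNAJC3, a co-chaperone known as p58IPK that also restrains the kinase EIF2AK3, had 509 and 1279 reads, a ratio of 2.72 (2.46 to 3.02). DNAJB11, a co-chaperone that hands substrates to HSPA5, had 898 and 1544 reads, a ratio of 1.86 (1.72 to 2.03). HYOU1, its nucleotide exchange factor, had 4880 and 6438 reads, a ratio of 1.43 (1.38 to 1.48). HSP90B1, the Hsp90 of the ER, had 16692 and 20323 reads, a ratio of 1.32 (1.29 to 1.35). DNAJC10, a co-chaperone with reductase domains, was the exception, with 3393 and 3012 reads and an interval that held 1 (ratio 0.962, 0.916 to 1.01).

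Among the oxidoreductases of the ovary, PDIA3, which works on glycoproteins held by calnexin and calreticulin, had 13678 and 24444 reads, a ratio of 1.94 (1.9 to 1.98). ERO1A, the oxidase that recharges disulfide isomerases, had 195 and 368 reads, a ratio of 2.05 (1.71 to 2.45). With equal library totals its log2 fold went from 1.03 to 0.83, under the 2-fold line. PDIA4 and PDIA6 had log2 folds of 0.47 and 0.40. In the pituitary these isomerases were the highest of the step: PDIA4 had 6123 and 8663 reads, a ratio of 1.5 (1.45 to 1.55), and PDIA6 had 7539 and 10630 reads, a ratio of 1.49 (1.45 to 1.54). There ERO1A lay lower (340 and 262 reads, log2 fold -0.29), opposite to its direction in the ovary.

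Of 14 glycan trimming enzymes and lectins over the level in the ovary, 4 were at least 2-fold higher, where 13.6% of all genes were. They were among the 9 members 2-fold higher there. MAN1A1, a Golgi mannosidase that trims glycans of proteins leaving the ER, had 133 and 477 reads, a ratio of 3.89 (3.2 to 4.75). The EDEM proteins trim mannose from misfolded glycoproteins and so mark them for degradation. EDEM1 had 61 and 199 reads, a ratio of 3.54 (2.64 to 4.79). EDEM2 had 1061 and 2188 reads, a ratio of 2.23 (2.08 to 2.41), and EDEM3 had 64 and 133 reads, a ratio of 2.25 (1.66 to 3.08). All 3 EDEM genes were thus higher in the anestrous ovary library, although EDEM2 and EDEM3 came to a log2 fold of 0.96 with equal library totals, just under the 2-fold line.

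The folding lectins were higher as well. Calreticulin (CALR) had 21050 and 31844 reads in the ovary, a ratio of 1.64 (1.61 to 1.67), and calnexin (CANX) had 7903 and 11328, a ratio of 1.55 (1.51 to 1.6). In the pituitary CALR had 17245 and 25164 reads, a ratio of 1.55 (1.52 to 1.58), whereas CANX had 11702 and 11500 (log2 fold 0.06). PRKCSH, the beta subunit of glucosidase II, had 9436 and 13246 reads in the pituitary, a ratio of 1.49 (1.45 to 1.53), and its catalytic partner GANAB had 6309 and 6937 (log2 fold 0.22).

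Members of this step did not all lie the same way. MAN1A2 resembled MAN1A1 in the ovary, with 40 and 72 reads and a ratio of 1.95 (1.31 to 2.95), but MAN1C1, another enzyme of that family, had 489 and 384 reads there (log2 fold -0.23). ERLEC1, an ER lectin of the degradation route, had 2205 and 1669 reads (-0.29), and the cytosolic glycanase NGLY1 had 853 and 639 (-0.30). In the hypothalamus MAN1C1 had the highest log2 fold of all members, 0.59, from 87 and 127 reads (ratio 1.51, 1.14 to 2). EDEM3 was lower there, with 495 and 374 reads, 1.28-fold (1.12 to 1.47), and EDEM2 had 689 and 553 reads (log2 fold -0.27). In the pituitary the 25 and 16 reads of EDEM1 were too few to set apart from no difference (interval of the ratio 0.338 to 1.32).

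**Figure D3:**
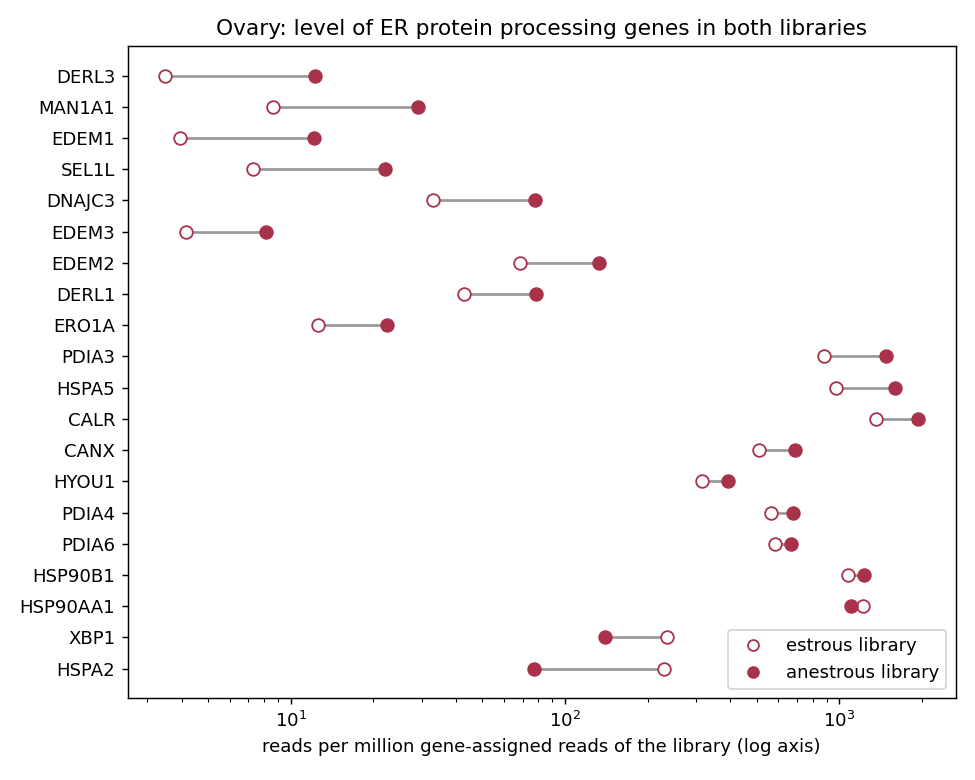
Level of the named members in the ovary in RPM (log axis), with open symbols for the estrous and filled symbols for the anestrous library. HSPA5, PDIA3 and CALR lie to the right in the anestrous library (ratios of normalised counts 1.9, 1.94 and 1.64), DERL3, MAN1A1, EDEM1 and SEL1L show the widest gaps to the right, and HSPA2 the widest to the left.

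COPII export genes, which build the coat of vesicles that leave the ER, were higher in the anestrous ovary in 10 of 11 cases (8 with equal library totals), with a median of 0.39. Of all genes there, 50.4% were higher, or 38.9% with equal totals. SEC24A, a cargo adaptor of the coat, had 355 and 620 reads, a ratio of 1.89 (1.66 to 2.16), and SEC13, of its outer cage, had 809 and 1182, a ratio of 1.58 (1.45 to 1.73). The adaptors SEC24B and SEC24C had lower log2 folds, 0.25 and 0.34. In the pituitary 4 of 11 genes were higher and 7 lower, with a median of -0.14, where 49.7% of all genes were higher. SEC24A (507 and 375 reads, -0.35) and SEC23A (592 and 420 reads, -0.41) were among the lower ones. The hypothalamus median was 0.04, or -0.05 with equal totals.

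The stress sensors and their signalling genes did not follow the chaperones in the ovary: 6 of 12 were higher and 6 lower, and none was 2-fold. Of all genes there, 50.4% were higher. XBP1, the transcription factor that the sensor ERN1 (IRE1) activates by splicing its mRNA, had 3641 and 2296 reads, 1.46-fold lower in the anestrous library (1.39 to 1.54). Counts per gene do not separate its spliced and unspliced forms. ERN1 had 703 and 625 reads (log2 fold -0.05), and EIF2AK3 (PERK), the sensor that slows translation, had 504 and 550 (0.24). PPP1R15A (GADD34), which restores translation afterwards, had 2652 and 2296 reads (-0.09). MBTPS1, a protease that releases the active part of ATF6, had 4349 and 3086 reads, 1.3-fold lower (1.24 to 1.36). BAX, a mediator of cell death, stood apart with 544 and 967 reads, a ratio of 1.93 (1.73 to 2.14). The sensor ATF6 and the factor DDIT3 (CHOP) were not analysed here.

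In the pituitary EIF2AK3 had 843 and 504 reads, 1.58-fold lower in the anestrous library (1.41 to 1.77). EIF2AK1, a related kinase that senses haem, had 385 and 541 reads there, a ratio of 1.49 (1.3 to 1.7), and in the hypothalamus 595 and 767, a ratio of 1.33 (1.19 to 1.48). XBP1 had 3662 and 2939 reads in the pituitary, 1.18-fold lower (1.12 to 1.23), and 1034 and 975 in the hypothalamus (log2 fold -0.04).

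ER-associated degradation (ERAD) genes form the largest step, with 36 members. In the ovary 3 of 32 were at least 2-fold higher, where 13.6% of all genes were. These 3 belong to the membrane complex that pulls proteins out of the ER. DERL3, a derlin of the retrotranslocation complex, had 54 and 202 reads, a ratio of 4.05 (2.99 to 5.58), the highest of all members over the level. SEL1L, the adaptor of the ubiquitin ligase SYVN1 (HRD1), had 113 and 363 reads, a ratio of 3.48 (2.81 to 4.34). DERL1 had 666 and 1286 reads, a ratio of 2.09 (1.9 to 2.3), or a log2 fold of 0.86 with equal library totals. VIMP, which links derlins to the ATPase VCP, had 1012 and 1823 reads, a ratio of 1.95 (1.81 to 2.11).

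The ligase SYVN1 itself had 2236 and 2125 reads, a ratio of 1.03 (0.97 to 1.09), so SEL1L and SYVN1 were not alike in the ovary. VCP, which extracts the substrates, had 8659 and 10338 reads (log2 fold 0.37). Other members of the step lay on both sides of 0. NPLOC4, a cofactor of VCP, had 1046 and 1381 reads (log2 fold 0.52). UBQLN4, a shuttle to the proteasome, had 1745 and 1089 reads, 1.48-fold lower (1.37 to 1.6), and the ubiquitin ligase STUB1 had 1596 and 1410 (log2 fold -0.06). YOD1, a deubiquitinase, had 13 and 8 reads, with an interval from 0.24 to 1.74.

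FBXO2 had the widest difference in the pituitary of any member over the level. This F-box protein recognises high-mannose glycans on proteins that have been pulled into the cytosol and is known from brain. It had 1036 reads in the estrous and 264 in the anestrous pituitary library, 3.7-fold lower (3.23 to 4.26), with an adjusted p of 2.46e-05 in the authors' deposited table. In the hypothalamus it had 1453 and 1711 reads (log2 fold 0.28), and in the ovary 113 and 109 (0.06). Fibroblast markers (1115 and 755 RPM) and T cell markers (23 and 16) were also lower in the anestrous pituitary library. So were POMC (47518 and 18906) and TSHB (281 and 134), while FSHB was higher (496 and 1853). Neuron markers there summed to 545 and 462 RPM, with 2 of 3 over the level lower and 1 higher. OXT was at 27.4 and 13.3 RPM and AVP at 6.06 and 6.04. The part of these in the FBXO2 and HSPH1 differences was not tested. The remaining ERAD genes of the pituitary ranged up to 0.88 for SEL1L2, which rested on 7 and 13 reads (ratio interval 0.73 to 5.83). Their median was -0.03.

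In the hypothalamus 27 of 34 ERAD genes were higher in the anestrous library, with a median of 0.09, but 17 of 34 with a median of 0.00 when library totals were set equal. Of all genes there, 49.8% were higher, or 37.2% with equal totals. SYVN1 had 2233 and 2707 reads, a ratio of 1.25 (1.18 to 1.32). BAG2, an inhibitor of the ligase STUB1, had 74 and 106 reads, a ratio of 1.48 (1.09 to 2.02). In the pituitary BAG2 had 54 and 33 reads, with an interval of the ratio that held 1 (0.407 to 1.02).

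Cytosolic heat shock proteins and co-chaperones had medians under that of all genes in both the pituitary (-0.14) and the ovary (-0.12). With equal library totals these were -0.26 and -0.32, where the medians of all genes were -0.12 and -0.20. The step median less that of all genes stayed at -0.14 in the pituitary and was -0.13 and -0.12 in the ovary under the 2 scalings. The summed level of the step was 4144 and 3366 RPM for pituitary and 3845 and 3128 for ovary. HSPA2, an Hsp70 best known from sperm formation, had 3553 and 1269 reads in the ovary, 2.58-fold lower in the anestrous library (2.42 to 2.76), and was the 1 member at least 2-fold lower there. In the hypothalamus it had 3358 and 2398 reads, 1.36-fold lower (1.29 to 1.43), whereas in the pituitary it had 612 and 740 (log2 fold 0.36). CRYAB, the small heat shock protein alpha-B crystallin, had 715 and 384 reads in the ovary, 1.72-fold lower (1.52 to 1.95), and 1179 and 1564 in the pituitary, a ratio of 1.41 (1.3 to 1.52). DNAJA1, an Hsp40 co-chaperone of cytosolic Hsp70, had 6256 and 4065 reads in the ovary, 1.42-fold lower (1.36 to 1.48).

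In the pituitary 6 of 10 genes of this step were lower and 4 higher, where 49.7% of all genes were higher. HSPH1, the large Hsp110 that exchanges nucleotide on Hsp70, had 5228 and 2190 reads, 2.25-fold lower in the anestrous library (2.14 to 2.37), with an adjusted p of 0.0123 in the authors' deposited table. DNAJA1 had 6339 and 3554 reads, 1.68-fold lower (1.62 to 1.75), with an adjusted p of 0.562 in the authors' deposited table. HSPA4L, a relative of HSPH1, had 303 and 189 reads, 1.51-fold lower (1.26 to 1.82), and DNAJA2 had 1704 and 1163 (log2 fold -0.47). The cytosolic Hsp90 genes differed less, with log2 folds of -0.22 for HSP90AA1 (26981 and 21860 reads) and 0.04 for HSP90AB1. In the hypothalamus HSPH1 was on the other side, with 6374 and 8796 reads, a ratio of 1.42 (1.38 to 1.47), while DNAJC5B, a cysteine-string protein gene, had the lowest log2 fold there, -0.78, from 188 and 106 reads (1.72-fold lower, 1.35 to 2.2). The Hsp70 genes HSPA8 and HSPA1B and the co-chaperone DNAJB1 were not analysed here.

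**Figure D4:**
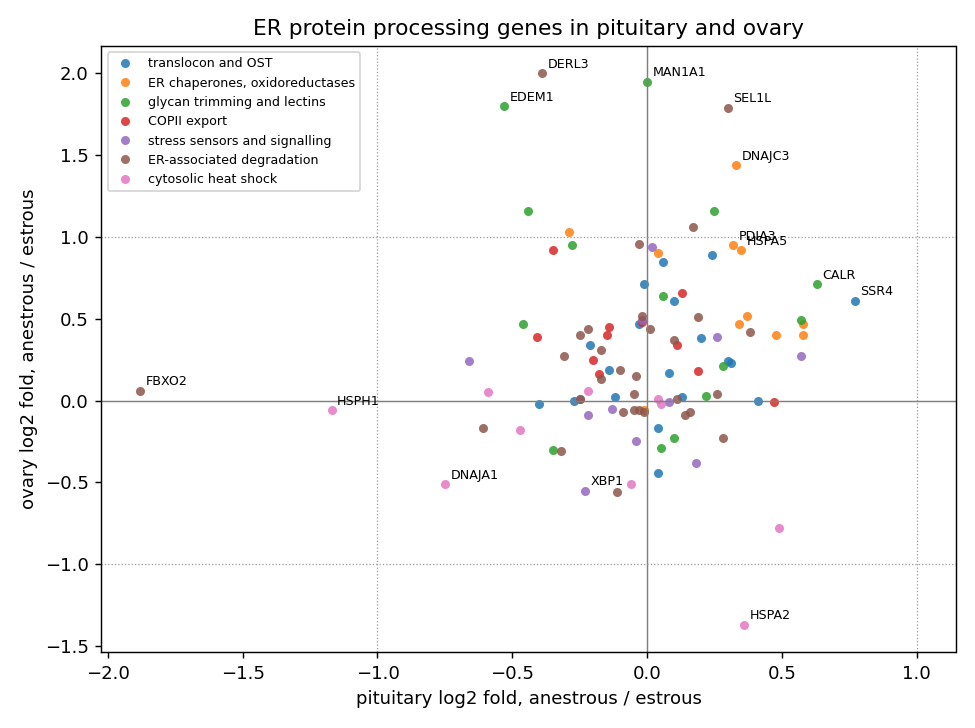
Log2 fold (anestrous over estrous normalised count) of each member in the pituitary (x axis) and the ovary (y axis), coloured by step of the pathway. DERL3, MAN1A1, EDEM1 and SEL1L lie at the top (ovary log2 folds 2.0, 1.95, 1.80 and 1.79) with pituitary values from -0.53 to 0.30, FBXO2 and HSPH1 lie far to the left, and HSPA2 lies at the bottom; Pearson's r over 108 members was 0.08.

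Members did not keep their log2 folds from tissue to tissue. Across the 108 members over the level in all 3 tissues, Pearson's r of the log2 folds was 0.08 between pituitary and ovary, -0.13 between hypothalamus and ovary and -0.21 between hypothalamus and pituitary. Over 11897 genes the same values were 0.07, 0.05 and 0.30. These are descriptions across genes, which are not independent, and the labels leave unsaid whether the 3 tissues of a state came from the same sows. No member differed at least 2-fold in a shared direction across the 3 tissues. The log2 fold was above 0 in all 3 tissues for 27 members (25%, against 13% of all genes), among them HSPA5, HSP90B1, HYOU1, PDIA3, PDIA6, CALR, CANX, DNAJB11, DNAJC3 and DERL1. It was below 0 in all 3 for UBQLN4, NFE2L2, DNAJB2, PPP1R15A, ERN1, DNAJA2 and XBP1, which is 6.48% of members against 12.7% of all genes. These counts depend on the scaling: with equal library totals 7 members (6.48%, against 5.32% of all genes) lay above 0 in all 3 tissues and 22 (20.4%, against 25.1%) below.

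Levels in RPM, which are shares of a library's reads, were compared across the tissues. Very abundant genes lower the RPM of all other genes in a library. The 7 anterior pituitary genes held 248811 and 259550 RPM of the estrous and anestrous pituitary libraries. The order of tissues below is therefore one of read shares and was not corrected for this. Of 112 members over the level in some tissue, the mean of both libraries was highest in the ovary for 49 (43.8%, against 43.6% of all genes), in the pituitary for 31 (27.7%, against 16.3%) and in the hypothalamus for 32 (28.6%, against 40.1%). The steps differed in this. Cytosolic heat shock genes were highest in the hypothalamus in 10 of 11 cases, while translocon and oligosaccharyltransferase genes were highest in the pituitary in 10 of 19 and in the hypothalamus in 2, and chaperones in the pituitary and in the ovary in 5 of 11 each. For 27 members of the hypothalamus, 16 of the pituitary and 29 of the ovary, both libraries of the leading tissue were above all 4 others. The matching share of all genes was not computed, so whether these counts are particular to the members is not known.

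Paralogs within the pathway were divided between tissues. SEC61A2 had 312 and 321 RPM in the estrous and anestrous hypothalamus, 60.1 and 57.1 in those of the pituitary, and 87.1 and 55.9 in those of the ovary. SEC61A1 was lowest in the hypothalamus, with 79.1 and 64.3 in the hypothalamus, 193 and 177 in pituitary, and 171 and 243 in ovary. The hypothalamus libraries were thus above all others for SEC61A2 and below all others for SEC61A1. DERL3 had 20.2 and 14.2 RPM in the pituitary, 3.49 and 12.3 in the ovary, and 1.37 and 1.39 in the hypothalamus, so its anestrous ovary level came near but stayed under that of the pituitary. CRYAB had 445 and 344 in the hypothalamus, 69.3 and 90 in pituitary, and 46.2 and 23.4 in ovary.

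DNAJC5B, FBXO2 and HSPH1 were also highest in the hypothalamus. DNAJC5B had 12.3 and 6.7 RPM there, 0.176 and 0.173 in the pituitary, and 0 reads in both ovary libraries. FBXO2 had 94.9 and 108 in the hypothalamus and 7.3 and 6.63 in the ovary, and the estrous pituitary, with 60.9, was nearer to the hypothalamus than was the anestrous pituitary, with 15.2. HSPH1 had 416 and 556 in the hypothalamus, 307 and 126 in pituitary, and 136 and 113 in ovary. The estrous and anestrous pituitary libraries therefore differed more for HSPH1 than the anestrous pituitary differed from the ovary.

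**Figure D5:**
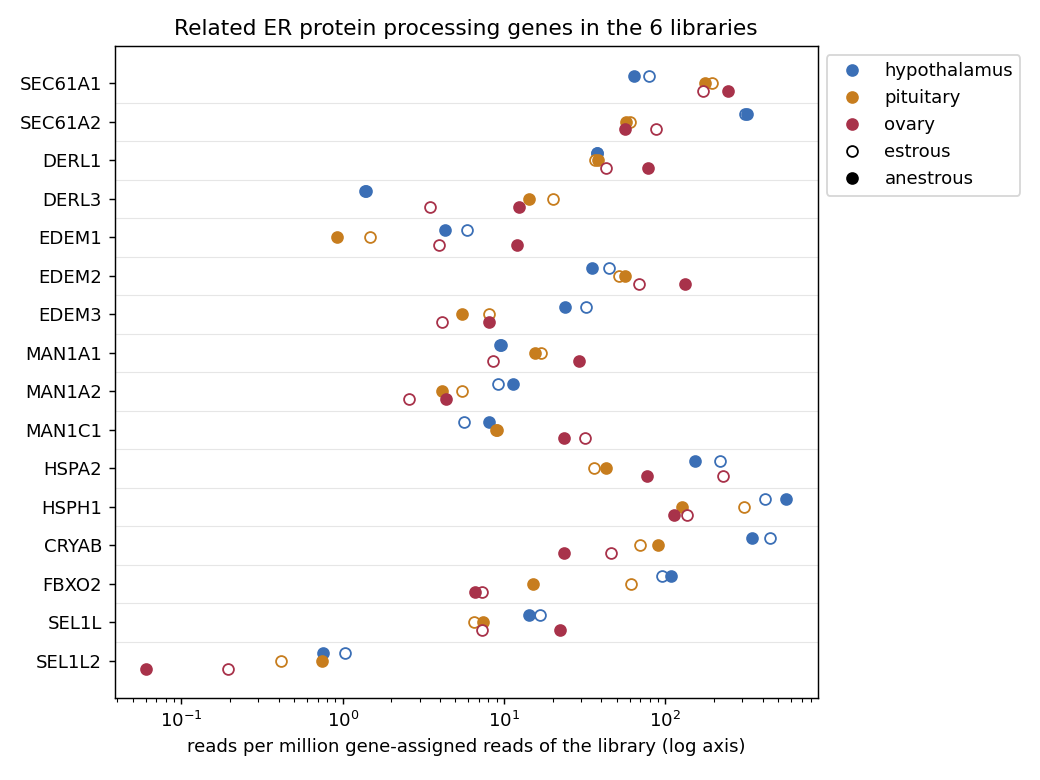
Level in RPM (log axis) of paralogs and of members with large differences, in the 6 libraries, with open symbols for estrous and filled for anestrous. SEC61A2 is highest in the hypothalamus (312 and 321) and SEC61A1 lowest there (79.1 and 64.3), and the anestrous pituitary library is low for HSPH1 (126 against 307) and FBXO2 (15.2 against 60.9).

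The members were also split by annotation that the rule did not use. Of the 117 members, 54 have a Gene Ontology term that names the ER. In the ovary these had a median log2 fold of 0.40, with 8 of 53 at least 2-fold higher and 0 lower, where 13.6% and 10.7% of all genes were higher and lower. The 63 without such a term had a median of 0.14, with 1 higher and 1 lower of 56. Lack of such a term does not place a protein outside the ER. The medians in the hypothalamus were 0.05 and 0.05, and those in the pituitary 0.01 and 0.00.

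Genes of the unfolded protein response and of ER upkeep outside the KEGG entry were read from a list of 40, of which 34 were found and 33 were over the level. Their median in the ovary was 0.29, with 6 at least 2-fold higher (13.6% of all genes) and 1 lower (10.7% of all genes). TRIB3, a pseudokinase that is a target of ATF4 and CHOP, had 41 and 898 reads, a ratio of 23.7 (17.4 to 33.3). SDF2L1, a partner of HSPA5 co-chaperones, had 79 and 469, a ratio of 6.43 (5.06 to 8.27), and CRELD2, an ER stress-responsive protein, had 393 and 868, a ratio of 2.39 (2.12 to 2.7). The retrieval receptor KDELR3, the calcium-binding NUCB2 and the transcription factor CREB3L2 had ratios of 2.63, 2.65 and 2.34. CHAC1, a glutathione-degrading enzyme that is also a target of ATF4, lay the opposite way, with 2669 and 279 reads (ratio 0.113, 0.0998 to 0.128). In the pituitary the list's median was -0.08 with VLDLR alone 2-fold higher (ratio 2.09), and in the hypothalamus it was -0.04 with 0 either way.

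Neighbouring pathways, with shared genes left out, set the members' ovary median of 0.23 in context. The median in the ovary was 0.26 for 27 genes of N-glycan biosynthesis, 0.04 for 12 of protein export, -0.02 for 24 of the proteasome and 0.00 for 80 of ubiquitin-mediated proteolysis. In the pituitary the same pathways had medians from -0.04 to 0.04, and in the hypothalamus from 0.04 to 0.09. The 8 pathway genes that also carry the TNF entry had an ovary median of 0.34 over 7, with MAPK10 at 97 and 32 reads (log2 fold -1.46).

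A difference between states that the tissues share was looked for in 1 model of all 6 libraries, with tissue as a block, on the recovered reads. The tissues stand in for replicates in this model, which they are not. With edgeR's quasi-likelihood test 0 of 14444 genes had a Benjamini-Hochberg adjusted p of at most 0.05 (0% of those tested) and 542 had an unadjusted p under 0.05. Of the 112 members tested, 0 had either. DESeq2 called 46 of 16887 genes (0.272%), of which 0 were members. Of its 115 members tested, 1 had an unadjusted p under 0.05.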

How the data were processed

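RNA sequencing of hypothalamus, pituitary and ovary gave 1 library for each tissue and state, from TruSeq preparations of Trizol-extracted RNA per the labels. TopHat2 2.1.0 was used per the submitters' processing notes. For the counter, genome build, annotation release and strand setting, the entry is "not given in the sources used here"; overlapping genes and close paralogs are therefore uncertain. No gene coordinates or sequences are given.

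Each deposited table holds a normalised signal per Ensembl gene in both libraries of a tissue, beside the authors' own p-value, raw and adjusted, per the file headers. This signal equals reads over the library's size factor. Dividing each column by its smallest nonzero value gave whole numbers within 0.01 throughout (100% of values), and these recovered reads served as counts. Tables were normalised separately, so ratios were taken within a tissue and levels across tissues as RPM, reads per 1000000 gene-assigned reads.

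With 1 library against 1, no test of state was made per tissue, and the p-values are the authors' own. The log2 fold used a pseudocount of 1, which understates differences of low genes. Ratios use none, with exact conditional (Clopper-Pearson) 95% intervals. Symbols came from the tables (12765) and an Ensembl name table (14422 in all). UBE2D2's symbol stood at more than 1 gene ID.

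Named genes were the 8 highest and 8 lowest members of each tissue, members 2-fold different alike or oppositely across tissues, and 40 fixed genes, of which 30 were members. Other members were named for their step after their values were seen. Members, steps and lists were chosen with earlier results of these data known. Alternatives were equal library totals, TMM scaling, another pseudocount, other minimum levels and folds, the authors' adjusted p, the TNF genes and shared symbols. After the files were seen, the model over all libraries was added (edgeR 4.0.16, DESeq2 1.42.0, R 4.3.3, tested on simulated data). Other steps used Python 3.11.15, pandas 2.3.3 and scipy 1.17.1. Some members are not reported here by name.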

Additional observations from a re-analysis of the deposited data

Results flagged for a closer look

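Several members were at least 2-fold different in 1 tissue and lay on the other side of 0 in another, with a counting interval there that excluded 1. With 1 library for each tissue and state, none of these differences between tissues was tested. The log2 fold of HSPA2 in the ovary less that in the pituitary was -1.73 (-1.37 and 0.36). For ERO1A, ovary less pituitary was 1.32 (1.03 and -0.29). For DERL3, ovary less pituitary was 2.39 (2.0 and -0.39), the widest of these gaps. For EDEM2, ovary less hypothalamus was 1.43 (1.16 and -0.27). EDEM3 stood apart in the ovary from both other tissues, by 1.52 from the hypothalamus and by 1.60 from the pituitary (1.16 against -0.36 and -0.44). With equal library totals ERO1A, EDEM2 and EDEM3 lay under the 2-fold line in the ovary (0.83, 0.96 and 0.96). For HSPH1, pituitary less hypothalamus was -1.68 (-1.17 and 0.51), and for FBXO2 it was -2.17 (-1.88 and 0.28). EDEM1 (ovary 1.80, hypothalamus -0.35, pituitary -0.53) and SEL1L (ovary 1.79, hypothalamus -0.15) also changed sides, but their intervals on the lower side held 1.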

How the results depend on the processing

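With 1 library on each side no replicate could be left out. No paired analysis was possible because each tissue has 1 library per state and no label ties libraries to a sow; the model with tissue as a block matches libraries by tissue only. Under TMM scaling and a pseudocount of 5 all 121 values of named genes and all 21 step medians stayed within their counting or rank interval; with equal library totals 70 and 6 moved out of it. Equal totals gave member medians of -0.04 (hypothalamus), -0.11 (pituitary) and 0.03 (ovary), and 5 members 2-fold higher in the ovary in place of 9 (4.59%, against 10.5% of all genes): DERL3, MAN1A1, EDEM1, SEL1L and DNAJC3. Without a minimum level, 1 member was 2-fold lower in the hypothalamus (0.87%, against 5.49% of all genes), 3 in the pituitary (2.61%, against 7.23%) and 2 in the ovary (1.77%, against 13.9%), where 11 were higher (9.73%, against 15.9%). At a fold of 1.5, 1 was higher and 1 lower in the hypothalamus (6.38% and 8.01% of all genes), 3 and 6 in pituitary (6.83% and 10.5% of all genes), and 24 and 2 in ovary (22% and 1.83%, against 22.7% and 20.1% of all genes). Asking for the authors' adjusted p as well left 0 and 0 in the ovary, where it left 0.705% and 0.114% of all genes. With the TNF genes included, 2 were lower in the ovary (1.72%, against 10.7% of all genes). In the model over all libraries edgeR called 0 genes, DESeq2 46 (0.272%), and edgeR without the ovary libraries 66 (0.474%, with 1179 at an unadjusted p under 0.05). In each of these fits 0 members were called. A turn of direction was looked for only in values at least 2-fold in the main setting. These scalings move folds too little to turn such a value, so that check decides nothing. Smaller values did turn: with equal totals the member medians of hypothalamus and pituitary and several step medians went below 0. Depth limits YOD1, SEL1L2, BAG2 and EDEM1 in the pituitary or ovary, where intervals of low counts held 1.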

Other observations

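The members with most reads changed places between libraries. In the hypothalamus HSP90AA1, HSP90AB1 and CANX led both libraries and held 27.9% of the members' reads in the estrous and 28% in the anestrous library. In the estrous pituitary HSP90AA1, HSPA5 and HSP90AB1 led (20.6%), and in the anestrous one HSPA5, CALR and HSP90B1 (20.2%). In the estrous ovary HSP90AB1, CALR and HSP90AA1 led (18.8%), and in the anestrous one CALR, HSPA5 and PDIA3 (20.8%). Cytosolic Hsp90 genes were thus among the first 3 in both estrous libraries of pituitary and ovary, and ER luminal chaperones and lectins filled the first 3 in the anestrous libraries of these tissues. These ranks are by reads, not per length.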
